A study of Mus musculus with 8 samples.

Results

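Cx3cr1, P2ry12, Tmem119, C1qa, C1qb, C1qc, Trem2 and Tyrobp, 8 genes known from microglia and the complement pathway, were followed through every annotated cell type of the paraflocculus/flocculus (PF/F) of the cerebellum and of the petrous temporal bone (PTB) around it. The 8 genes were picked by name from the 32285 features of the count tables, with no threshold on their values. Nuclei came from P5.5 mice, either WT or Tbx1+/-, the latter lacking 1 working copy of the transcription factor gene Tbx1 and compared with their littermates. Each tissue had 2 WT and 2 Tbx1+/- libraries, taken as 1 of each genotype per batch of animals, and each library pooled 5 mice. The library was therefore the replicate, and the spread between mice of a pool was not measured. The study describes isolating both tissues from P5.5 mice. PF/F and PTB libraries of the same genotype and batch may thus share mice, which the labels do not state. The main comparison was between the nuclei that the authors annotated as Immune in the PF/F (385 of 48237 annotated nuclei) and as Osteoclast in the PTB (1559 of 31076). Levels are unique molecular identifiers (UMIs) of a gene scaled to 1000000 UMIs of the summed nuclei of a type (CPM). Reads came from a 3′ kit and were counted over exons and introns with no length scaling, so that levels were compared between cell types and not between genes.

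Microglia are the resident macrophages of the brain. They and osteoclasts, the cells that resorb bone, both belong to the myeloid lineage and both depend on the receptor Csf1r. Cx3cr1 is the receptor of the neuronal chemokine Cx3cl1, P2ry12 is a nucleotide receptor that guides microglial processes, and Tmem119 is a membrane protein used to tell microglia from other macrophages. C1qa, C1qb and C1qc encode the chains of C1q, which starts the classical complement cascade and tags synapses for removal. Trem2 is a lipid-sensing receptor without a signalling tail of its own, and Tyrobp (DAP12) is the adaptor that signals for it and for receptors that osteoclasts need to fuse.

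The immune sums held 73 to 133 nuclei and 223075 to 471595 UMIs per library, with a median of 2474 to 2840.5 UMIs per nucleus. The osteoclast sums held 320 to 455 nuclei and 2393064 to 2719871 UMIs, with a median of 4963 to 7105. A count of 3 UMIs, taken as the floor, was worth 6.36 to 13.4 CPM in the immune sums and 1.10 to 1.25 CPM in the osteoclast sums. Libraries shared 11 to 60 annotated barcodes in pairs, and no immune or osteoclast barcode was shared. Tbx1 was at 38.9 and 39.4 CPM in WT and at 26.3 and 35.7 CPM in Tbx1+/- over the annotated nuclei of the PTB, and at 0.0949 to 0.265 CPM in the PF/F.

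The labels were checked against markers other than these 8 genes. A list of 8 microglia markers summed to 3059 to 3906 CPM in immune nuclei to 60.6 to 69.8 CPM in differentiated granule neurons of the same libraries and to 999.3 to 1202 CPM in osteoclasts. The 3 granule neuron markers summed to 93.5 to 143 CPM in immune nuclei and to 289 to 313 CPM in those neurons. A list of 11 osteoclast markers summed to 12674 to 14239 CPM in osteoclasts and to 253 to 332 CPM in immune nuclei, where Mmp9, Dcstamp and Ocstamp were at 0. The 3 osteoblast markers summed to 1225 to 1483 CPM in osteoclasts and to 5528 to 6236 CPM in Osteoblasts. The 3 chondrocyte markers summed to 268 to 551 CPM in osteoclasts and to 1135 to 1442 CPM in CP2, a chondrocyte progenitor type. The source of these UMIs in osteoclasts was not tested. The Immune class also held markers of other macrophages. The 8 markers of border macrophages, which live in the meninges and around vessels, summed to 1128 to 2273 CPM in it, against 100.3 to 146 CPM in osteoclasts. Whether they mark a second cell type within the class was not tested. Of the 5 neutrophil and the 5 T and NK cell markers, 4 each were at 0 in immune nuclei. Fewer were at 0 of the monocyte markers (1 of 4), the B cell markers (2 of 4) and the mast cell markers (1 of 2). The monocyte markers summed to 0 to 9.05 CPM in immune nuclei. The B cell markers summed to 7.74 to 13.4 CPM there and to 1.38 to 2.55 CPM in differentiated granule neurons. These sums are near the floor of 3 UMIs in immune nuclei.

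The genes of C1q lie side by side. In GENCODE vM21 on GRCm38, C1qb, C1qc and C1qa are the 3 protein-coding genes of an 18675-base stretch of the minus strand, chr4:136880129-136898803. Trem2 lies on the plus strand at chr17:48346401-48354147 and Tyrobp on the plus strand at chr7:30413760-30417585. Tmem119 lies on the minus strand at chr5:113793729-113800516. P2ry12, on the minus strand at chr3:59216272-59262871, lies wholly within Med12l, a gene of the opposite strand. The model of Cx3cr1, on the minus strand, spans 168264 bases at chr9:119901616-120069879 and overlaps Gorasp1, Csrnp1 and Xirp1 on its own strand and Wdr48 and Ttc21a on the other.

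Promoter sequence (RefSeq, GRCm38.p6) was found for Cx3cr1, P2ry12, C1qb, C1qc and Trem2, which is 5 of the 8 genes. The 250 bases before the start were searched on both strands for GAGGAA, the core of the site of the macrophage factor PU.1, for AGGAAGT, a longer site of the same Ets family with which it can overlap, and for TGACTCA, the AP-1 site. GAGGAA was found in 3 of the 5 and in 23.3% of 32851 promoters, AGGAAGT in 3 of the 5 and in 7.69% of all, and TGACTCA in 0 of the 5 and in 4.46% of all. The 4 promoters with a match to GAGGAA or AGGAAGT are shown, to place the matches. Cx3cr1, whose promoter had none, was also far higher in immune nuclei than in osteoclasts. Capitals mark GAGGAA or AGGAAGT or their reverse complements, which overlap in C1qc. Each sequence is read 5′ to 3′ on the strand of its gene, at chr4:136886201-136886450 (minus) for C1qb, chr4:136892915-136893164 (minus) for C1qc, chr3:59262986-59263235 (minus) for P2ry12 and chr17:48346151-48346400 (plus) for Trem2.
C1qb: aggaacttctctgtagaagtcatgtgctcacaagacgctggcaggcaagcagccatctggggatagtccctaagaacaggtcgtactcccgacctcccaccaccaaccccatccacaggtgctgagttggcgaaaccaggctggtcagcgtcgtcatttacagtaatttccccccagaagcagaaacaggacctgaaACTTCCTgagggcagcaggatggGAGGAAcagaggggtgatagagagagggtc
C1qc: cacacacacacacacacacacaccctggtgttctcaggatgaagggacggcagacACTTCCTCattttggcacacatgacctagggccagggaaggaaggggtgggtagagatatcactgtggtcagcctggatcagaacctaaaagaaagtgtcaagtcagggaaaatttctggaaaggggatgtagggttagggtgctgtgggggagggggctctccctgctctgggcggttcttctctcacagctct
P2ry12: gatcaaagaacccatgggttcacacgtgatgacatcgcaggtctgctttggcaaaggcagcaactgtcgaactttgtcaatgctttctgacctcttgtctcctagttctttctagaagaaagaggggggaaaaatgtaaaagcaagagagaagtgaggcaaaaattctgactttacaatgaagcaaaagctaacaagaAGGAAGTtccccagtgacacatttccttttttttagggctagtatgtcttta
Trem2: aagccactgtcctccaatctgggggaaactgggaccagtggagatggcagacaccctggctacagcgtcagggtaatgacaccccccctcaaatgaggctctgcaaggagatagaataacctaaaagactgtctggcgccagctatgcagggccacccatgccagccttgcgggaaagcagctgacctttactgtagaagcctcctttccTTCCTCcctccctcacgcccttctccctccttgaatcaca
A match is a string of letters in a window and was not tested as a binding site.

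Cx3cr1, P2ry12, the C1q genes and Trem2 were 40.3- to 63.8-fold higher in PF/F immune nuclei than in PTB osteoclasts, and Tyrobp did not pass the test, with means of 148 and 132 CPM. Tmem119, with 2 to 5 UMIs per library in immune nuclei, was lower there than in osteoclasts but passed the filter on low counts through the osteoclasts. Over all genes, 5795 of 12250 tested (47.3%) passed an adjusted p of 0.05 and a 1.5-fold change, 3013 of them higher (24.6%) and 2782 lower (22.7%) in immune nuclei (edgeR quasi-likelihood test). Of the 7 genes that also passed the filter within each type alone, 6 were called higher and 1, Tyrobp, was not called. Tmem119 did not pass it in immune nuclei alone, and its call is not counted with them. The filter works on counts, and the osteoclast sums hold more UMIs, so genes passed it there at lower CPM. Trem2 passed it in osteoclasts at 2.57 to 5.53 CPM, whereas Tmem119 did not in immune nuclei at 7.74 to 15.1 CPM. This favours genes higher in immune nuclei, and no direction is drawn from the counts of the 7 genes. These counts are read beside the 24.6% and 22.7% of all genes. Cell type, tissue and library differ together in this comparison and cannot be told apart. This test and the interaction given below took the library sums as independent, although PF/F and PTB libraries may share mice. The authors named the types by clustering and marker genes from the same nuclei. The labels are therefore not independent of these genes, and the p-values between the types are no independent support for a difference. Comparisons of a type with the others of its tissue are descriptions for the same reason.

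**Figure D1:**
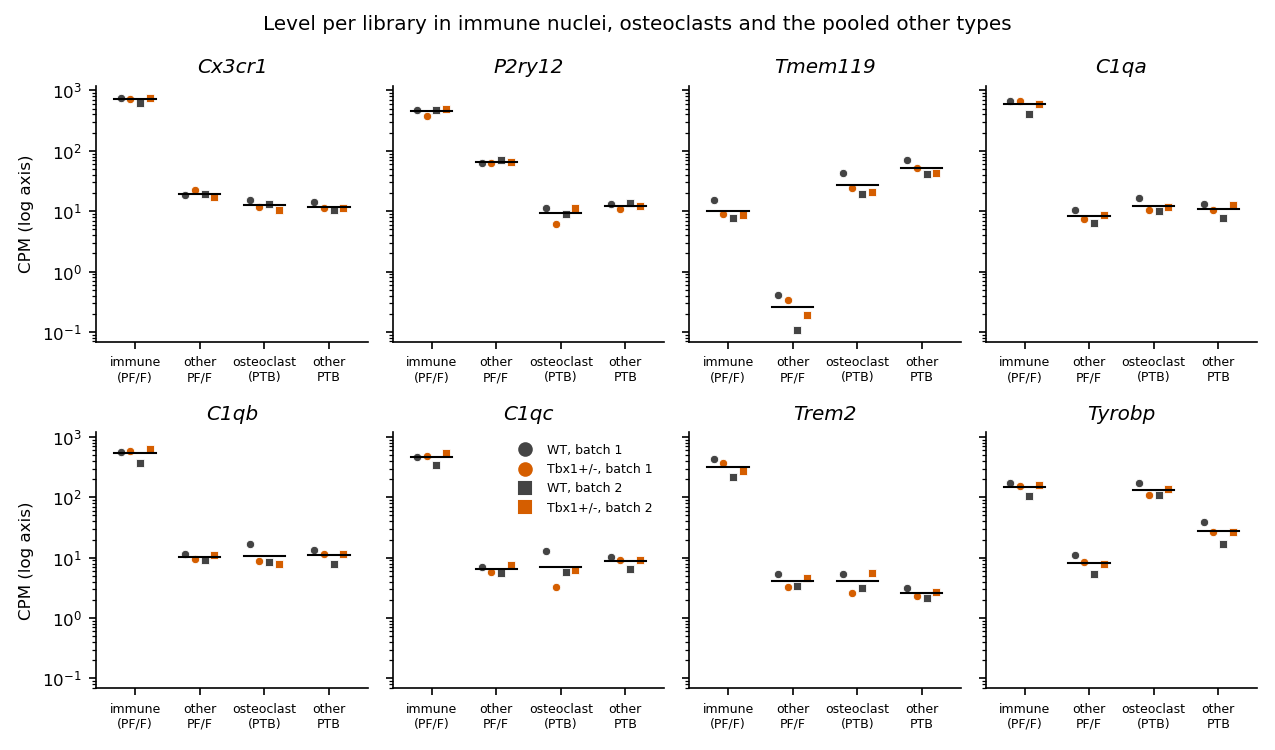
CPM on a log axis of each gene in PF/F immune nuclei, the pooled other PF/F types, PTB osteoclasts and the pooled other PTB types. Points are the 4 libraries of a tissue (colour for genotype, shape for batch) and lines are their means. For Cx3cr1, P2ry12, the C1q genes and Trem2 the osteoclasts sit near the other PTB types, and for Tyrobp they sit above it in all 4 libraries.

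Among the surface receptors, Cx3cr1 was at 760.3 and 619.6 CPM in the immune nuclei of the WT libraries of batches 1 and 2, and at 735 and 738 CPM in those of the Tbx1+/- libraries. In osteoclasts it was at 15.0 and 13.2 CPM in WT and at 11.8 and 10.3 CPM in Tbx1+/-. No immune library came near an osteoclast library, and the log2 difference was 5.57 (standard error 0.16, adjusted p = 1.1e-12, edgeR). P2ry12 was at 474 and 472 CPM (WT) and at 377 and 496 CPM (Tbx1+/-) in immune nuclei. In osteoclasts it was at 11.3 and 8.91 CPM (WT) and at 6.25 and 11.4 CPM (Tbx1+/-). Its groups were as far apart, with a log2 difference of 5.33 (standard error 0.18, adjusted p = 3.1e-12, edgeR).

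The osteoclast values of both receptors were close to those of the rest of the bone. The pooled other PTB types were at 10.5 to 14.2 CPM of Cx3cr1. The osteoclasts were at 0.927 to 1.26 times this level, and their 95% Poisson interval was above it in 0 of 4 libraries. For P2ry12 the other PTB types were at 10.7 to 13.5 CPM, and the osteoclasts were lower than this in each of the 4 libraries. Its highest PTB type was CP5, a chondrocyte progenitor type, at 35.2 ± 12.6 CPM (SD, n = 4). CP4 came next at 16.9 ± 2.19 CPM, with no overlap between their libraries. Poisson intervals cover counting error only.

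Outside immune nuclei, P2ry12 and Cx3cr1 each had a second PF/F type that stood out. P2ry12 was at 144 ± 16.0 CPM (SD, n = 4) in astroglia, each library above every value of the next type, Progenitors (87.4 ± 25.8 CPM), and at 62.6 to 71.8 CPM in the pooled PF/F types other than Immune. Med12l, which contains P2ry12 on the opposite strand and encodes a Mediator subunit, was at 263 ± 27.0 CPM in the same astroglia and at 353 ± 46.0 CPM in immune nuclei. Over the mean levels of the 31 annotated types, Med12l was the gene most like P2ry12, with a Pearson r of 0.900 on the log2(CPM + 1) scale. Cx3cr1 was at 151 ± 37.5 CPM in RL.early, the early rhombic lip class, and at means of 12.9 to 32.6 CPM in the PF/F types ranked below it. Ttc21a, which overlaps Cx3cr1 on the opposite strand and is known from cilia, was at 208 ± 40.7 CPM in RL.early and at 2.77 ± 4.25 CPM in immune nuclei. These overlaps are those of vM21, and the gene models behind the deposited counts may differ from it. Whether reads of the overlapping genes were counted to P2ry12 and Cx3cr1 was not tested.

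**Figure D2:**
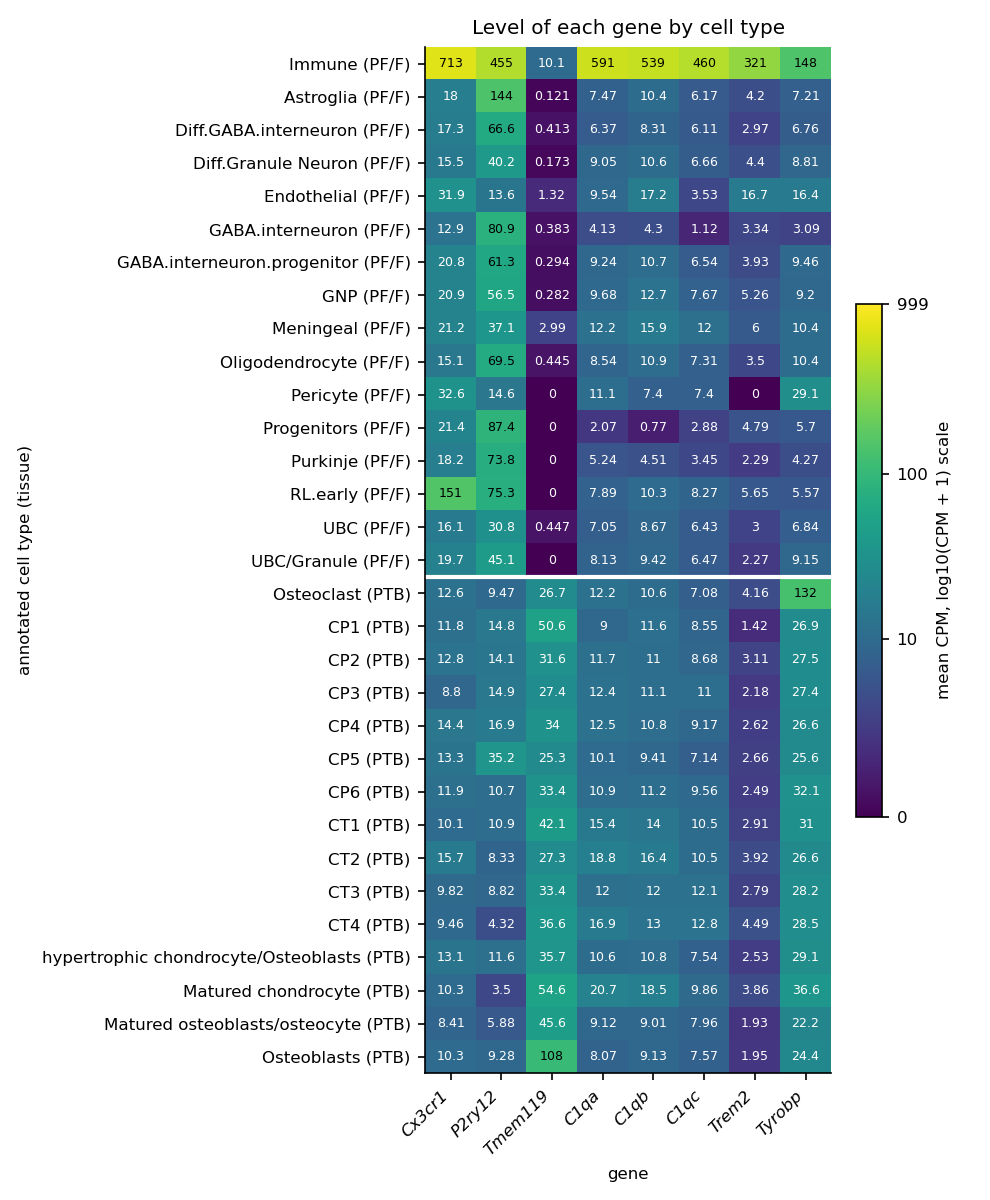
Mean CPM of 4 libraries for each gene (columns) in each annotated type (rows), PF/F above and PTB below the white line, with colour on a log10(CPM + 1) scale and the mean printed in each cell. The Immune row is high for 7 genes but not for Tmem119 (10.1 CPM), which reaches 108 CPM in Osteoblasts.

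Tmem119 was sparse in the immune nuclei, although they were the PF/F type with most of it. They held 5 and 2 UMIs of it in the WT libraries of batches 1 and 2 and 2 and 4 in the Tbx1+/- libraries, that is 15.1 and 7.74 CPM (WT) and 8.97 and 8.48 CPM (Tbx1+/-), near the floor of 3 UMIs. These levels were 26.5 to 72.5 times those of the pooled other PF/F types, at 0.107 to 0.406 CPM, with the Poisson interval above them in 4 of 4 libraries. Osteoclasts were at 42.6 and 19.0 CPM (WT) and 24.6 and 20.6 CPM (Tbx1+/-), a log2 difference of -1.63 for immune nuclei against osteoclasts (standard error 0.44, adjusted p = 0.0053, edgeR). The gene entered this test through its osteoclast counts and fell below the filter when any PTB library was left out, so that the call is no support for a difference between these cell types. The osteoclast values were themselves 0.465 to 0.614 times those of the pooled other PTB types. The type with most Tmem119 was Osteoblasts, at 167 and 85.9 CPM (WT) and 94.0 and 84.6 CPM (Tbx1+/-), above each value of the next type, matured chondrocytes, at 54.6 ± 15.4 CPM. Tmem119 is known from osteoblasts as well as from microglia. The genes most like it over the 31 types were Surf4, of protein transport, and Lox, which cross-links collagen, each with r = 0.97.

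The complement genes were high together in the immune nuclei. C1qa was at 679 and 407 CPM (WT) and at 672 and 606 CPM (Tbx1+/-). C1qb was at 567 and 368 CPM (WT) and at 583 and 638 CPM (Tbx1+/-). C1qc was at 462 and 337 CPM (WT) and at 489 and 551 CPM (Tbx1+/-). The WT library of batch 2 was the lowest of the 4 for each of them. In osteoclasts the highest values were those of the WT library of batch 1, at 16.3 CPM of C1qa, 17.1 CPM of C1qb and 12.95 CPM of C1qc, and the other 3 libraries were at 3.31 to 11.8 CPM. The log2 differences were 5.35 (standard error 0.21, adjusted p = 6.9e-12), 5.44 (0.24, 2.2e-11) and 5.78 (0.27, 3.5e-11) for C1qa, C1qb and C1qc (edgeR). For none of the 3 was the Poisson interval of the osteoclasts above the other PTB types in any library. Across the 31 types the levels of the 3 genes ran together, with Pearson r of 0.97 between C1qa and C1qb, 0.96 between C1qa and C1qc and 0.92 between C1qb and C1qc, for types that share libraries and depth. Without thinning, 45.6% and 35.5% (WT) and 52.1% and 48.9% (Tbx1+/-) of immune nuclei held UMIs of all 3 genes, and 0 to 0.938% of osteoclasts did.

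Trem2 and its adaptor parted in osteoclasts. Trem2 was at 425 and 217 CPM (WT) and at 372 and 271 CPM (Tbx1+/-) in immune nuclei, and at 5.43 and 3.10 CPM (WT) and 2.57 and 5.53 CPM (Tbx1+/-) in osteoclasts, a log2 difference of 6.00 (standard error 0.27, adjusted p = 2.2e-11, edgeR). Both libraries of batch 2 were below both of batch 1 in immune nuclei. Osteoclasts were 1.09 to 2.07 times the pooled other PTB types, with the interval above them in 1 of 4 libraries.

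Tyrobp was at 175 and 105 CPM (WT) and at 152 and 161 CPM (Tbx1+/-) in immune nuclei. In osteoclasts it was at 173 and 110.0 CPM (WT) and at 107 and 139 CPM (Tbx1+/-). The ranges overlapped, and the log2 difference was -0.07 (standard error 0.19, adjusted p = 0.80, edgeR). This difference, taken after TMM scaling, has the opposite sign to that of the mean CPM, which is not scaled by TMM. Tyrobp was the gene of the 8 for which osteoclasts stood above every other PTB type in all 4 libraries, at 4.06 to 6.44 times the pooled rest. In the PF/F, immune nuclei were at 16.0 to 20.5 times the pooled rest. The base level differed between tissues, with 17.1 to 39.4 CPM in the other PTB types and 5.34 to 10.9 CPM in the other PF/F types. The genes most like Tyrobp over the 31 types were Ctsz (r = 0.95) and Grn (r = 0.93), of the lysosome, both at higher CPM in immune nuclei (466 ± 76.8 and 352 ± 67.9) than in osteoclasts (201 ± 68.8 and 163 ± 46.9).

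The genes nearest in pattern to the other members were found by the same measure. For Cx3cr1 they were Gm42601 and Ccl3, a chemokine (r = 0.89 each), and for Trem2 1 of them was 4930403D09Rik (r = 0.92). For C1qa they were Nlrp1b (r = 0.93) and Themis2 (r = 0.92), for C1qb the cytokine receptor gene Csf3r and the actin capping gene Capza2 (r = 0.90 each), and for C1qc the transporter gene Abcc3 and the Fc receptor gene Fcgr2b (r = 0.91 each). The second gene for P2ry12 was 4930473A02Rik (r = 0.88). These are descriptions over 31 types with no test, and how much of each r the single Immune type carries was not tested.

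Nuclei of different depth were compared after each was thinned to 1000 UMIs, which left out 0 of the nuclei. Some UMI of the 8 genes was then found in 90.4 ± 2.85% of immune nuclei (SD, n = 4), in 18.4 ± 4.11% of osteoclasts, in 9.15 ± 0.840% of differentiated granule neurons and in 11.8 ± 3.58% of CP2 chondrocyte progenitors. The share was 18.1 ± 1.45% in astroglia and 16.1 ± 3.84% in osteoblasts, close to that of osteoclasts. Neurons and chondrocyte progenitors are not known for the macrophage genes among the 8, and their shares are given as the level in types that should lack them. The CP2 share includes Tmem119, found in 3.605% of CP2 nuclei, and the neuron share includes P2ry12, found in 3.57%. Before thinning, the median depths were 2572 to 3483 UMIs in these neurons and 3620 to 4581 in CP2. Cx3cr1 was found in 48.5 ± 2.32% of immune nuclei, P2ry12 in 33.3 ± 4.91%, C1qa in 41.6 ± 4.69%, C1qb in 42.4 ± 8.62%, C1qc in 39.1 ± 4.43% and Trem2 in 28.3 ± 6.73%. In osteoclasts these 6 genes were found in 0.413 to 1.74% of nuclei, close to the 0.343 to 1.38% of CP2. Whether these osteoclast counts come from the osteoclasts themselves was not tested. Tyrobp was found in 14.4 ± 3.84% of immune nuclei, 11.8 ± 2.59% of osteoclasts and 2.99 ± 1.21% of CP2. Tmem119 was found in 1.02 ± 0.834% of immune nuclei and in 9.62 ± 3.00% of osteoblasts. Unthinned, the shares with any of the 8 genes were 98.6% of immune nuclei and 68.7% of osteoclasts.

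**Figure D3:**
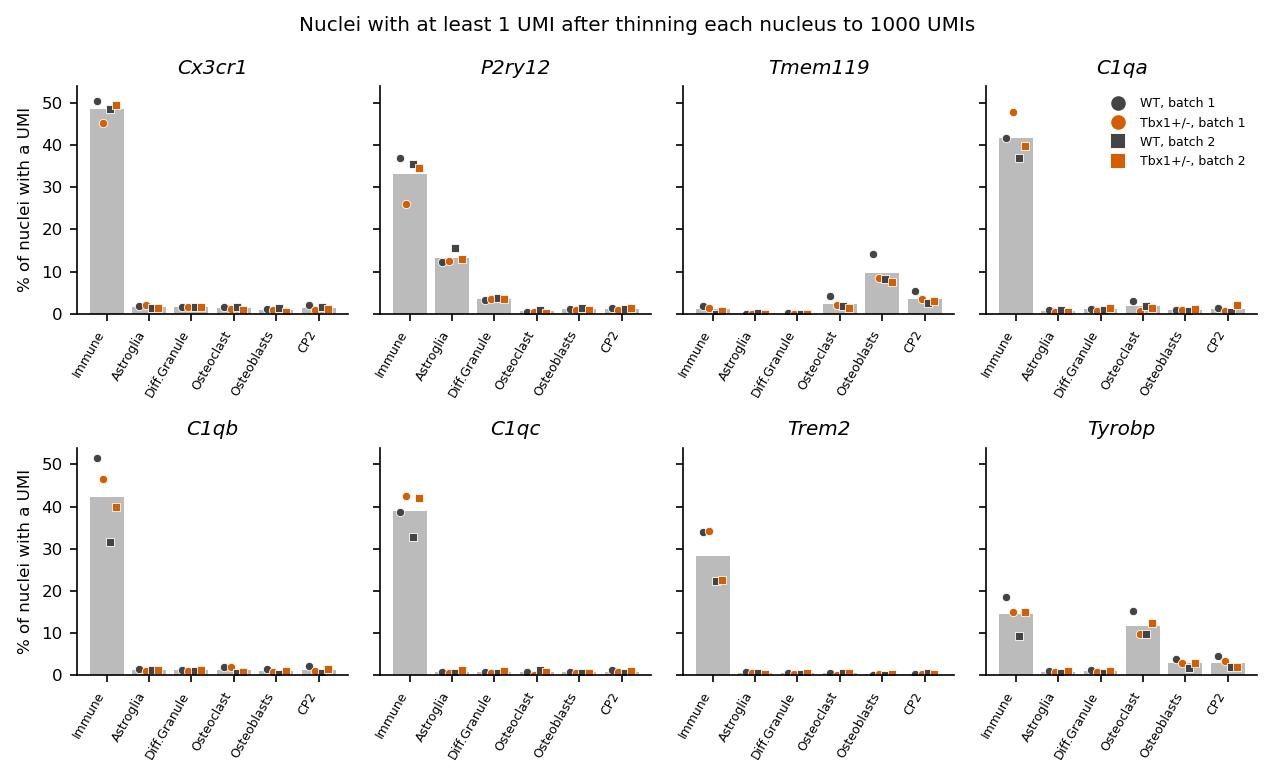
Percent of nuclei with at least 1 UMI of each gene after thinning to 1000 UMIs, in 6 types. Bars are means of 4 libraries and points the libraries. Tyrobp has bars of 14.4% in Immune and 11.8% in Osteoclast, whereas the bars of Cx3cr1, the C1q genes and Trem2 stand high in Immune alone among these types.

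The types with most of these UMIs per nucleus held a minor share of them in a library. Immune nuclei held 0.443 to 0.778% of all UMIs of a PF/F library and 22.4 to 30.5% of its C1qa UMIs, 20.8 to 28.9% of its Trem2 UMIs, 12.4 to 22.6% of its Cx3cr1 UMIs and 2.66 to 5.62% of its P2ry12 UMIs. Other annotated PF/F nuclei held 48.0 to 50.5% of the C1qa UMIs, spread thinly. Osteoclasts held 2.70 to 4.06% of all UMIs of a PTB library, 7.85 to 15.9% of its Tyrobp UMIs and 1.45 to 2.11% of its C1qb UMIs. Barcodes outside the annotation held 62.3 to 74.7% of the C1qb UMIs of the PTB, and 46.8 to 50.7% of all its UMIs.

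The immune nuclei were split by whether they held at least 3 UMIs of the border macrophage markers, which 20.4% and 32.9% of them did in WT and 47.9% and 36.1% in Tbx1+/-. P2ry12 was lower in the part with these markers in each of the 4 libraries, at 282 to 467 CPM against 480.4 to 553 CPM. Cx3cr1 was also lower there in each library, at 506 to 633 CPM against 671 to 895 CPM. C1qc was higher there in each library, at 395 to 692 CPM against 310.3 to 473 CPM, whereas C1qa and C1qb were higher there in 3 of 4 libraries each and Trem2 in 1 of 4. In osteoclasts, 17 to 22 nuclei of a library (3.96 to 5.31%) passed the same limit, and 3 of the 4 libraries had more of each C1q gene in them than in the remaining osteoclasts, with C1qb at 45.3 to 84.9 CPM against 5.47 to 12.9 CPM. In the Tbx1+/- library of batch 1 these nuclei held 1, 2 and 0 UMIs of C1qa, C1qb and C1qc, under the floor of 3. The limit uses markers counted in the same nuclei, so that deeper nuclei pass it more readily, and no test was made.

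Related genes were taken from 4 lists, read beside a median log2 difference of -0.00 over all 12250 genes tested for immune nuclei against osteoclasts, and beside the 24.6% of all genes called higher and 22.7% called lower. A gene that passed the filter on low counts through the type where it is high had to differ. The counts below are therefore also given for genes that passed the filter within each type alone. That filter passed genes at lower CPM in osteoclasts than in immune nuclei, as above, so no direction of a list is drawn from either count. Of 10 homeostatic microglia genes, 9 were tested and 8 were called higher in immune nuclei, with a median of 6.13. Siglech, Gpr34, P2ry13 and Sall1 were under the filter in osteoclasts alone. Of the 5 that passed in both types, 4 were called higher, with Fcrls at 6.80 and Olfml3 at 1.80 among them. The fifth was Csf1r, at -0.08 (adjusted p = 0.66, edgeR). Csf1r, the receptor for Csf1 and Il34, was at 578 ± 68.4 CPM in immune nuclei and 513 ± 37.3 CPM in osteoclasts, again of opposite sign to the difference after TMM scaling.

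Of 18 other components, receptors and regulators of complement, 12 were tested, and 4 were called higher (24.6% of all genes) and 4 lower (22.7% of all), with a median of -0.05. Of the 5 that passed the filter in both types, 2 were called higher and 2 lower. The receptor gene C3ar1 (3.27) and the integrin gene Itgam (1.20), part of complement receptor 3, were higher in immune nuclei, and the regulator gene Cr1l (-0.63) was lower. The receptor gene C5ar1 was called higher but was under the filter in osteoclasts alone, and the component gene C2 and the regulator gene Cd59a were called lower but were under it in immune nuclei alone. The lectin pathway protease gene Masp1 was called higher but was under it in both types alone.

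Of 14 genes of DAP12 and related adaptor signalling, 11 were tested, and 4 were called higher and 5 lower, 9 in either direction against 47.3% of all genes, with a median of -0.15. Of the 9 that passed the filter in both types, 4 were called higher and 3 lower. Apoe, a ligand of Trem2, was higher in immune nuclei (4.37), as was the adaptor gene Fcer1g (1.75), and the kinase gene Syk was lower (-1.64). The osteoclast receptor gene Oscar and the integrin gene Itgb3 were called lower but were under the filter in immune nuclei alone.

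Of 8 macrophage transcription factors, 7 were tested, and 5 were called higher and 2 lower, again beside 24.6% and 22.7% of all genes, with a median of 1.41. Of the 4 that passed the filter in both types, 2 were called higher and 2 lower. Maf (1.85) was among those higher in immune nuclei, and Spi1, which encodes PU.1, was lower (-1.19), as was Runx1 (-0.91). Irf8 and Sall1 were called higher but were under the filter in osteoclasts alone, and Cebpb was called higher but was under it in immune nuclei alone.

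Genotypes were compared within each type by the same test on sums per library, to ask whether loss of a Tbx1 copy went with a change in these genes. For immune nuclei edgeR tested 6846 genes and called 0 (0%), while 198 had an unadjusted p under 0.05 (DESeq2 called 0, with 19). For osteoclasts it tested 13191 and called 0 (0%), while 288 had an unadjusted p under 0.05 (DESeq2 0, with 65). With the batch number as a block, 3 genes were called in osteoclasts and 0 in immune nuclei, none of them among the 8. In simulated counts with 200 genes altered 2-fold, edgeR found 11.5% of those in the immune and 32.5% in the osteoclast comparison.

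None of the 8 genes was called with genotype. In immune nuclei 7 of them were tested and Tmem119 was below the filter. The largest difference among them was that of C1qc, at 0.37 on the log2 scale (standard error 0.29, adjusted p = 1.00, edgeR), with Tbx1+/- above WT in both batches. C1qb was at 0.37 (0.31, adjusted p = 1.00), with Tbx1+/- again above WT in both. Without the WT library of batch 2 these were 0.15 for C1qc and 0.081 for C1qb, and without that of batch 1 they were 0.69 and 0.79. The share of immune nuclei with at least 3 UMIs of border macrophage markers was also higher in Tbx1+/- than in WT in both batches, as given above, and its part in these values was not tested. Cx3cr1 (0.09 ± 0.29), P2ry12 (-0.11 ± 0.28), C1qa (0.22 ± 0.32), Trem2 (-0.04 ± 0.35) and Tyrobp (0.14 ± 0.31, standard errors) lay closer to 0. In osteoclasts all 8 were tested, and C1qc was at -0.96 (standard error 0.54, adjusted p = 1.00, edgeR) and C1qb at -0.63 (0.41, adjusted p = 1.00). C1qc went from 12.95 CPM in WT to 3.31 CPM in Tbx1+/- in batch 1, and from 5.81 to 6.26 CPM in batch 2, which are opposite directions. The other 6 were at -0.45 to -0.07. With a library left out, the osteoclast change of C1qc ran from -1.51 (without the Tbx1+/- library of batch 2) to -0.28 (without the WT library of batch 1), and was -1.44 and -0.57 without the WT library of batch 2 and the Tbx1+/- library of batch 1. Without the 8% of nuclei with most UMIs it was -1.50, and that of C1qb -1.03. With a library left out, the change of C1qb ran from -1.06 (without the WT library of batch 2) to -0.047 (without that of batch 1). In the WT library of batch 1 the pooled other PTB types were also highest in C1qc, at 10.2 CPM.

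**Figure D4:**
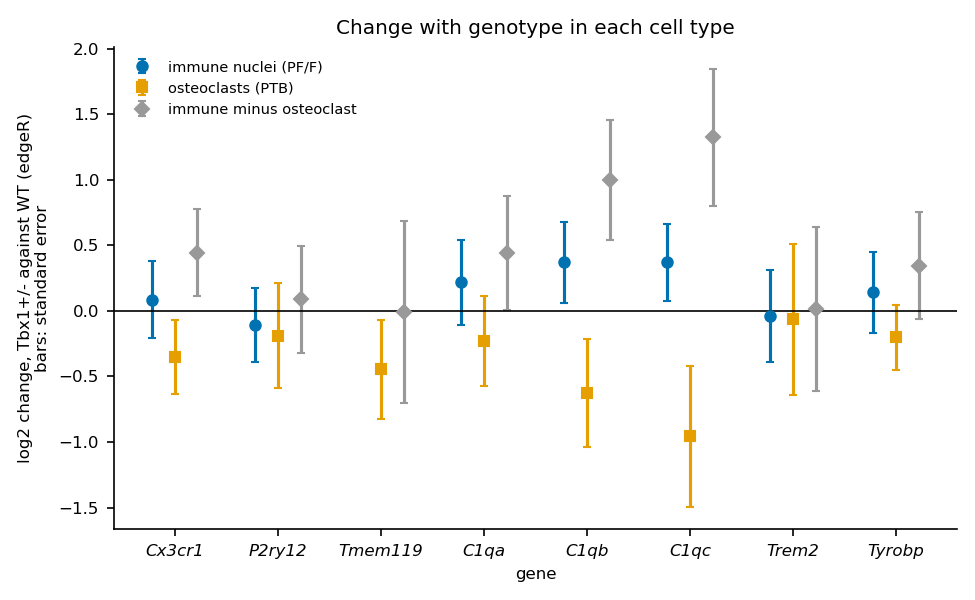
Log2 change of each gene in Tbx1+/- against WT in immune nuclei and in osteoclasts, and the difference of the 2 changes, from edgeR fits on sums per library. Bars are standard errors, and Tmem119 has no immune value because it was below the filter. No gene passed the adjusted threshold, and C1qc has the widest gap between the types, at 0.37 in immune nuclei and -0.96 in osteoclasts.

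Whether the genotype effect differed between the types was tested by an interaction term, for which edgeR called 0 (0%) among 13753 genes, while 497 had an unadjusted p under 0.05 (DESeq2 0, with 252). C1qc had a difference of 1.32 (standard error 0.52, unadjusted p = 0.025, adjusted p = 1.00) and C1qb one of 1.00 (0.46, unadjusted p = 0.049, adjusted p = 1.00, edgeR). Without the PTB WT library of batch 1 these were 0.65 and 0.42, and with any other library left out they were 0.92 to 1.87 for C1qc and 0.74 to 1.42 for C1qb. The other 6 were at -0.01 to 0.45.

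Counting nuclei keeps fewer cells and less RNA per cell apart. Immune nuclei were 0.835 ± 0.00717% of annotated PF/F nuclei in WT and 0.776 ± 0.351% in Tbx1+/- (SD, n = 2 each, exact two-sided permutation p = 1.00). The Tbx1+/- libraries were at 0.528% and 1.02%, on either side of WT. Among annotated PTB nuclei, osteoclasts made up 4.82 ± 0.757% (WT) and 5.40 ± 0.239% (Tbx1+/-; exact two-sided permutation p = 0.67). By library they were 4.28% (WT) and 5.23% (Tbx1+/-) in batch 1 and 5.35% and 5.57% in batch 2. Neither permutation test was paired by batch. With 2 libraries against 2 no p below 0.33 can be reached.

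The PTB annotation used here covers the chondrocyte and osteoblast part of the study's bone nuclei, with osteoclasts as its one immune class. The study also describes immune cells in the bone, which this annotation leaves out, and the PTB files hold barcodes with these genes outside it. Among 32101 PTB barcodes outside the annotation, 2174 had at least 3 UMIs of 6 macrophage markers, none of them one of the 8 genes, and more of these than of 6 osteoclast markers. C1qb was at 229 and 102 CPM in these barcodes in WT and at 99.4 and 172 CPM in Tbx1+/-, that is 7.16 to 13.4 times the remaining barcodes outside the annotation. These barcodes were picked by markers of macrophages, so this is a description and not a test. Tmem119 was lower in them than in the remaining barcodes in each of the 4 libraries.

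**Figure D5:**
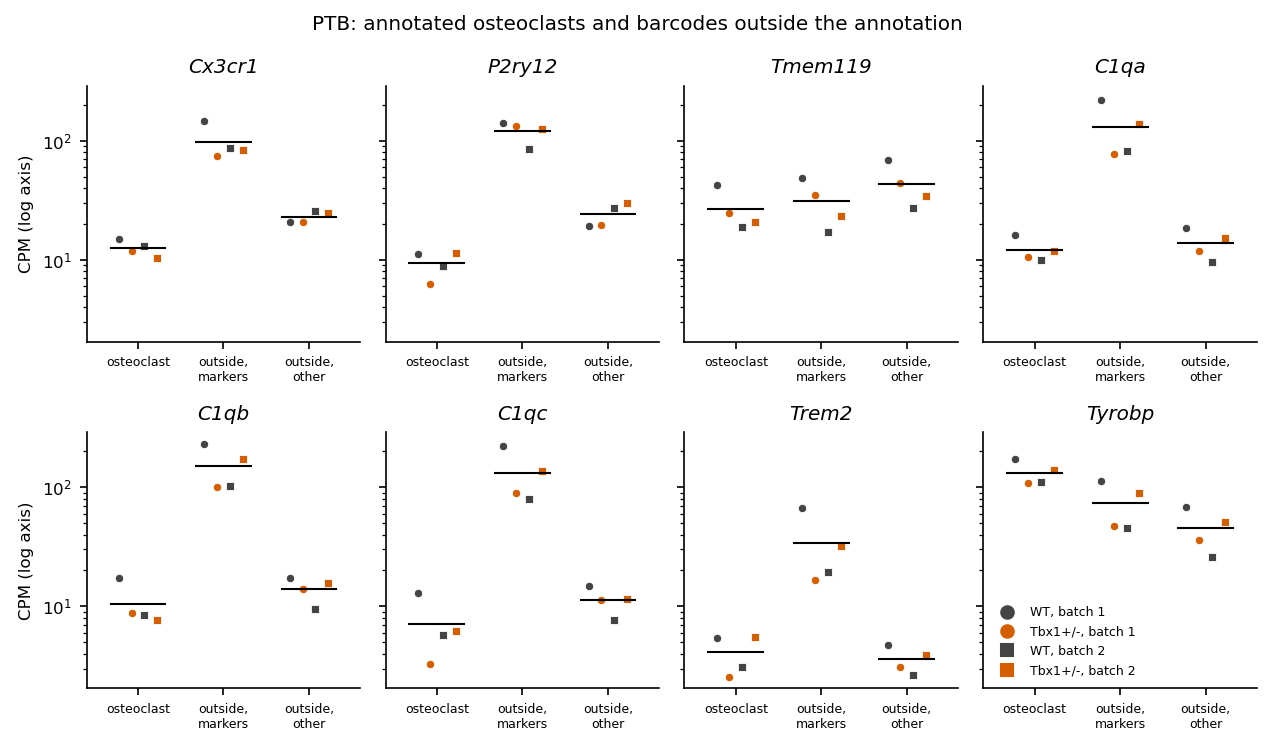
CPM on a log axis of each gene in PTB osteoclasts, in barcodes outside the annotation with macrophage markers, and in the other barcodes outside the annotation. Points are the 4 PTB libraries and lines their means. The C1q genes, Cx3cr1, P2ry12 and Trem2 are highest in the barcodes with macrophage markers, and Tyrobp is highest in osteoclasts, at a mean of 132 CPM.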

How the data were processed

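Per the labels and the study's methods, the authors mapped single-nucleus reads to mm10 with Cell Ranger 7.0.0, introns included, and deposited raw UMI counts per gene and barcode together with their cell type annotation. The deposited counts do not hold the authors' SoupX correction for free RNA. UMIs were summed per library over each annotated type with Python 3.11.15. Sums that passed filterByExpr were scaled by TMM and compared by the quasi-likelihood test of edgeR 4.0.16, with Benjamini-Hochberg adjustment over all genes tested, and by DESeq2 1.42.0 in R 4.3.3, and the test was checked on simulated counts. Dividing a log2 change by the root of its F statistic gave its standard error. Doublets were not called. The 8 genes, the lists and the tests were chosen with earlier results of these data known. The named genes are these 8, for each the 2 others of highest r among genes with at least 10 CPM in a type, list members and 3 ligands. Some genes that this rule names are not reported here. Alternatives were RLE factors, no filter, the batch block, other limits on nuclei and leaving out each library. The study describes separate batches of animals, and libraries of the same replicate number were taken as a batch, which the labels do not state. Deviations of WT and Tbx1+/- from their means within a batch had a correlation across genes of 0.145 in immune and 0.326 in osteoclast sums. Coordinates are from GENCODE vM21.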

Additional observations from a re-analysis of the deposited data

Results flagged for a closer look

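Barcodes outside the annotation are used by no test, and in the PTB they include nuclei that the study analysed but this annotation leaves out. Those with macrophage markers, as above, held Cx3cr1, P2ry12, the C1q genes, Trem2 and Tyrobp above the level of the remaining ones in each library. They were picked by these markers, so raised macrophage genes in them were built into the choice. The limit of 3 UMIs also favours deep barcodes, with medians of 2276 to 16170 UMIs in the PF/F against 813 to 1361 in the remaining ones. In the PTB, the barcodes with macrophage markers were at a mean of 97.5 CPM of Cx3cr1, 121 CPM of P2ry12, 129 CPM of C1qa, 151 CPM of C1qb, 132 CPM of C1qc, 33.9 CPM of Trem2 and 73.8 CPM of Tyrobp (n = 4 libraries). In the PF/F, 244 such barcodes of 9721 were at a mean of 109 CPM of Cx3cr1, 98.6 CPM of P2ry12, 104 CPM of C1qa, 96.2 CPM of C1qb, 83.6 CPM of C1qc, 56.4 CPM of Trem2 and 28.9 CPM of Tyrobp, below the levels of the annotated immune nuclei. Limits on genes, UMIs and mitochondrial reads were rebuilt from the study's description, with genes and UMIs on a log scale, which the study does not state. Few of these barcodes were within the rebuilt limits in the PF/F, with 1 to 12 in a library, whereas 354 to 663 were in a PTB library. The rebuilt limits are not the authors' exact ones, as the 48237 PF/F nuclei that the study kept equal the annotated number. Whether doublets or free RNA take part in these levels was not tested.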

How the results depend on the processing

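Cx3cr1, P2ry12, C1qa, C1qb, C1qc and Trem2 stayed higher in immune nuclei than in osteoclasts and past the threshold under each alternative run, with log2 differences of 4.90 to 6.20. Tmem119 stayed lower where it was tested, but it fell below the filter when any PTB library was left out. The Tyrobp difference, never called, was -0.46 (adjusted p = 0.12, edgeR) with nuclei of at least 2000 genes, turned to 0.037 without the 8% of nuclei with most UMIs and ran from -0.22 to 0.070 with a library left out, the cause of which was not tested. The genes called between immune nuclei and osteoclasts stayed within 1.5 times the count given.

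Counts of genes called with genotype depended on single libraries. A fit without a library has 1 library of that genotype in the type and takes no spread from it. No statement on an effect of genotype is therefore drawn from the counts of such fits. In immune nuclei they ran from 0 to 25, with 21 higher and 4 lower without the WT library of batch 1, 12 (3 higher and 9 lower) without that of batch 2 and 5 without the Tbx1+/- library of batch 1. In osteoclasts they ran from 0 to 206, with 162 higher and 44 lower without the WT library of batch 1, 43 (9 higher and 34 lower) without that of batch 2 and 1 without the Tbx1+/- library of batch 2. The interaction had 11 calls with no filter on low counts, 7 higher and 4 lower, and 0 to 1 with a library left out. The cause was not tested.

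With the batch number as a replicate block, 3 genes were called in osteoclasts. Trem2 in immune nuclei turned to 0.0497 under the block and the interaction of Tmem119 to 0.0904, both uncalled. Between immune nuclei and osteoclasts the fit with the block, which tested 13753 genes, called 6551, and the block changed the call of none of the 8 genes.

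The genotype changes of single genes, none of them called, turned in sign under small alternatives. Trem2 was at 0.025 in immune nuclei without the 8% of nuclei with most UMIs, and at 0.057 in osteoclasts with nuclei of at least 2000 genes. The interaction of Tmem119 was at 0.00034 with RLE factors, 0.0165 with no filter and 0.0128 with DESeq2. With a library left out, changes in immune nuclei ran from -0.074 to 0.30 for Cx3cr1, -0.33 to 0.083 for P2ry12, -0.12 to 0.70 for C1qa, -0.45 to 0.60 for Trem2 and -0.18 to 0.65 for Tyrobp. In osteoclasts they ran from -0.71 to 0.18 for P2ry12, -0.93 to 0.25 for Tmem119, -0.55 to 0.15 for C1qa, -0.74 to 0.38 for Trem2 and -0.50 to 0.16 for Tyrobp. The interaction ran from -0.31 to 0.61 for P2ry12, -0.70 to 0.67 for Tmem119, -0.45 to 0.68 for Trem2 and -0.017 to 0.86 for Tyrobp.

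The share of immune nuclei differed by 0.0760 percentage points with nuclei of at least 2000 genes and by -0.308 to 0.188 with a library left out, and that of osteoclasts by 0.0464 to 1.12. Some UMI of the 8 genes was found in 98.6% of immune nuclei and 68.7% of osteoclasts unthinned, and in 97.3% and 33.3% at 2000 UMIs.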

Other observations

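The ligands of these cells were looked up in the same sums. Csf1, which keeps macrophages and osteoclasts alive through Csf1r, was at 218 ± 99.6 CPM in the PF/F immune nuclei themselves (SD, n = 4), with 163 and 321 CPM in the WT and 108 and 280 CPM in the Tbx1+/- libraries of batches 1 and 2, and at 208 ± 11.4 CPM in the hypertrophic chondrocyte/Osteoblasts type of the PTB. It was at 118 ± 9.27 CPM in CT4 and 113 ± 11.02 CPM in CP1. Il34, the other ligand of Csf1r, was at 146 ± 70.1 CPM in pericytes and at 124 ± 10.0 CPM in meningeal nuclei of the PF/F, and at 27.6 ± 5.19 CPM in its highest PTB type, CT2. The pericyte sums were small, with 1 UMI worth 14.8 to 28.7 CPM, so that the pericyte value rests on few UMIs. Cx3cl1, the ligand of Cx3cr1, had a mean of at most 9.34 CPM in any type, and 0 UMIs of it were counted in the immune nuclei of the 4 libraries.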
